A study of Mus musculus with 11 samples.

Results

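The cardiac muscle genes Myh6, Mybpc3, Nppa, Tnnt2, Myl7, Myl4, Actc1, Ryr2 and Sln were followed in whole mouse lung. They are 9 of the 27670 genes named on the array, read by 16 of 41174 probes, and were chosen by name as a group noted for its shifts in these same data. The series measured total RNA of lung on 11 arrays, each hybridised with 1 sample. The 4 groups compared were lungs of Foxa3 knockout mice challenged with OVA (n = 3), littermate control mice challenged with OVA (n = 3), Foxa3 knockout mice challenged with saline (n = 2) and littermate control mice challenged with saline (n = 3). The littermates are titled WT and are called wild type here, and the knockouts are titled Foxa3-/-, with no cell type or inducing agent named for the deletion. OVA, in this field the egg protein ovalbumin, is an antigen used to provoke allergic inflammation of the airways. FOXA3 is a forkhead transcription factor found in airway and gut epithelium and in liver. Strain, age, sex, dosing and whether lungs were pooled are not given in the sources used here, so p-values measure the spread between these samples only.

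Heart muscle is a normal part of the rodent lung. The walls of the pulmonary veins carry a sleeve of striated muscle cells that continues from the left atrium far into the lung and beats with it. These cells use atrial forms of the contractile proteins. Contraction depends on myosin heavy and light chains pulling on cardiac actin, on troponin as the calcium switch of the thin filament, and on calcium released from the sarcoplasmic reticulum through the ryanodine receptor. Atrial cells also store atrial natriuretic peptide, a hormone that lowers blood volume, in granules. In whole-lung RNA, fewer such cells and less RNA per cell cannot be told apart.

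Each value below is the log2 of a probe's background-subtracted intensity minus the 75th percentile of its array, called the scaled log2 intensity. A difference of 1 is therefore a doubling, and levels are not compared between probes. A gene is represented by its brightest probe. Of the 9 members, 8 had a probe well above background on all 11 arrays, and Ryr2 had none. Several members were read by probes within the coding sequence, and they are shown here because the agreement between probes bears on every value that follows. Coordinates are those of the files, on mm7, and a span longer than the 60 bases of the probe crosses an intron. In the Myl4 pair, capitals mark the run of 47 bases that the probes share. The Myh6 pair lies in neighbouring stretches of the same gene, and the file's annotation of both lists a Myh7 transcript beside that of Myh6.
Myh6 A_52_P117510 (chr14:49813005-49813064, minus strand): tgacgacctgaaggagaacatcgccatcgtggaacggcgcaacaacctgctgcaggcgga
Myh6 A_51_P512210 (chr14:49811341-49812926, minus strand): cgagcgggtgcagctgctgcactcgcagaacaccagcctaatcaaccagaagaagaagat
Myl4 A_52_P544523 (chr11:104693149-104693519, plus strand): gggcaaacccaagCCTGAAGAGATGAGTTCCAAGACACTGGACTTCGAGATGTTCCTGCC
Myl4 A_51_P413130 (chr11:104693162-104693532, plus strand): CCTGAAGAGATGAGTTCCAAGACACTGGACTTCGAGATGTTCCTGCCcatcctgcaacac
Nppa A_51_P361340 (chr4:146990480-146990642, plus strand): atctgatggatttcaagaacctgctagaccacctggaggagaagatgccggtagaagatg
Tnnt2 A_51_P338262 (chr1:135737607-135737919, plus strand): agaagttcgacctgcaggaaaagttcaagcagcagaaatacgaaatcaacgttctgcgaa
Actc1 A_51_P149469 (chr2:113789115-113790038, minus strand): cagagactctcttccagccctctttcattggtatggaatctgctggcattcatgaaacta

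The paired probes gave the same picture on every array. The Myh6 probes were correlated with r = 0.997 over the 11 arrays and stayed 0.82 to 1.03 apart on the log2 scale. The Myl4 probes had r = 0.999 and a gap of 0.12 to 0.20. Nppa, printed in 10 spots for each of 2 probes, had r = 0.998 between probes, and the spots of a probe scattered within an array by a median SD of only 0.04 to 0.05. For comparison, Nppa varied between arrays of a group with a residual SD of 0.59, so the spread seen between lungs is far above the spot noise. The second probes of Tnnt2 and Sln were well above background on 3 arrays each. The dim Tnnt2 probe followed the bright one (r = 0.94), while the dim Sln probe did not (r = 0.17).

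The promoters of 8 of the 9 members were found in the RefSeq table (GRCm38.p6), with 2 start sites for Tnnt2 and none for Sln. The promoters of Myl7, Actc1, Nppa and Mybpc3 are shown because each holds a match to a motif of cardiac factors within the bases printed. The 150 bases before the start are printed, and capitals mark matches to the CArG box bound by serum response factor, the MEF2 motif, GATAA (the core read by GATA factors) and CATTCC (read by TEAD factors), on either strand.
Myl7 (chr11:5898783-5898932, minus strand): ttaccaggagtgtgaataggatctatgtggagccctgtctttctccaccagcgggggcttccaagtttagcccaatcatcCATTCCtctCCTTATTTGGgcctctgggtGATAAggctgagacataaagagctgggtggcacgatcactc
Actc1 (chr2:114052876-114053025, minus strand): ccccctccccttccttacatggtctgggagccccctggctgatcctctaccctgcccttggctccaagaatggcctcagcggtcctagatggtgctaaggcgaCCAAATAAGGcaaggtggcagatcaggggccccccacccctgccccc
Nppa (chr4:148000572-148000721, plus strand): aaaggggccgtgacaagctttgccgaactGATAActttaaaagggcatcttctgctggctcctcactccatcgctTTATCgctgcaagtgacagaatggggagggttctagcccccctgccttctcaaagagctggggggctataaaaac
Mybpc3 (chr2:91117994-91118143, plus strand): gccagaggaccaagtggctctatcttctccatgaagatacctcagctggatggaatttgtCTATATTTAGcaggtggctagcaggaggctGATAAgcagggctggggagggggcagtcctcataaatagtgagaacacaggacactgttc

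Over the 250 bases before the start, a CArG box was present for Myl7 and Actc1 among the 8 member genes, against 1.47% of 32851 promoters in the table. In Myl7 it stood at -61 to -52, counted from -1 at the last base before the start, with CATTCC at -70 to -65 and GATAA at -41 to -37. In Actc1 it stood at -47 to -38. The MEF2 motif was present for Mybpc3 alone, against 2.92% of all promoters. GATAA was present for Mybpc3, Myl7, Nppa and Tnnt2, against 22.6%, and CATTCC for Myh6, Myl7 and Tnnt2, against 12.6%. AAGTG, read by NKX2-5, was present for Mybpc3, Myh6, Myl4, Myl7 and Nppa, against 40.7%, and TATAAA for Nppa alone, against 12.4%. Both strands were searched, and a match describes the letters only.

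The heart markers that accompany a cardiac cell were measured as well. All 21 other cardiac sarcomere genes on the list passed the filter, among them Tnni3 and Tnnc1 (the cardiac inhibitory and calcium-binding troponins), Ttn and Actn2. Nkx2-5, the homeodomain factor of the heart lineage, was well above background on all 11 arrays, as were Pln and Casq2, which regulate and buffer the calcium store. Fast skeletal myosin Myh2 was well above background in 0 of 3 knockout OVA, 0 of 3 wild-type OVA, 2 of 2 knockout saline and 3 of 3 wild-type saline lungs. Of 21 skeletal muscle genes 19 passed the filter, and 13 were well above background on all 11 arrays. Acta1, skeletal alpha actin, was well above background in every lung, while Pvalb and Mybpc1, named after their values were seen, did not pass the filter.

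Foxa3 itself was detected above background in 0 of 5 knockout lungs and in 6 of 6 wild-type lungs. It was at least 8.15-fold lower in knockout than wild-type lungs after OVA (adjusted p = 3.5e-04 in limma) and at least 1.58-fold lower after saline (adjusted p = 0.032), taking the lowest well-detected signal of each knockout array as the bound. The arrays lie on 3 slides, the third of which holds no knockout saline lung. Between 71.2% and 78.9% of probes were well above background on an array.

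Of the lungs labelled wild type and saline, replicate 1 stood apart in the ventricular light chains Myl2 and Myl3. Myl2, the regulatory light chain of ventricular myosin, was 0.50 there, against -6.50 and -6.15 in the other wild-type saline lungs. It was -5.92, -6.28 and -6.23 in knockout OVA lungs, -3.68, -6.10 and -6.12 in wild-type OVA lungs, and -5.92 and -6.06 in knockout saline lungs. Myl2 was thus high on a single array, and raised on wild-type OVA replicate 1. Myl3, the ventricular essential light chain, had its highest value on the same array, at 1.67. Other genes of the ventricular list were mixed. Among the wild-type saline lungs, Nppb was highest there (-3.43 against -3.80 and -4.69) and Myh7 was lowest (2.97 against 3.04 and 3.23). Tnni3 lay between the others (2.89 against 3.01 and 2.50). Over the 6 ventricular genes the median of OVA minus saline in wild-type lungs was -1.09 with wild-type saline replicate 1 and -0.38 without it. The members' medians and the list counts for OVA in wild-type lungs are therefore also given without it.

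Myh6 encodes the alpha myosin heavy chain, the fast motor of atrial and adult mouse heart muscle. It measured 2.05, 2.23 and 1.55 in knockout OVA lungs, 2.82, 1.39 and 2.54 in wild-type OVA lungs, 2.65 and 2.10 in knockout saline lungs, and 3.60, 3.62 and 3.27 in wild-type saline lungs. The 3 wild-type saline lungs were above all 8 others, and the lowest value was that of wild-type OVA replicate 2. Myl4, the atrial essential light chain, ran parallel. It was 1.92, 2.33 and 1.43 in knockout OVA lungs, 2.70, 1.497 and 2.40 in wild-type OVA lungs, 2.58 and 2.29 in knockout saline lungs, and 3.46, 3.45 and 3.12 in wild-type saline lungs. Again every wild-type saline lung lay above the other 8. Myl7, the atrial regulatory light chain, was 4.10, 4.51 and 3.52 in knockout OVA lungs, 4.45, 3.51 and 4.36 in wild-type OVA lungs, 4.45 and 4.16 in knockout saline lungs, and 4.85, 5.10 and 4.70 in wild-type saline lungs. The wild-type saline lungs were highest once more, and knockout OVA replicate 2 came closest to them.

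**Figure D1:**
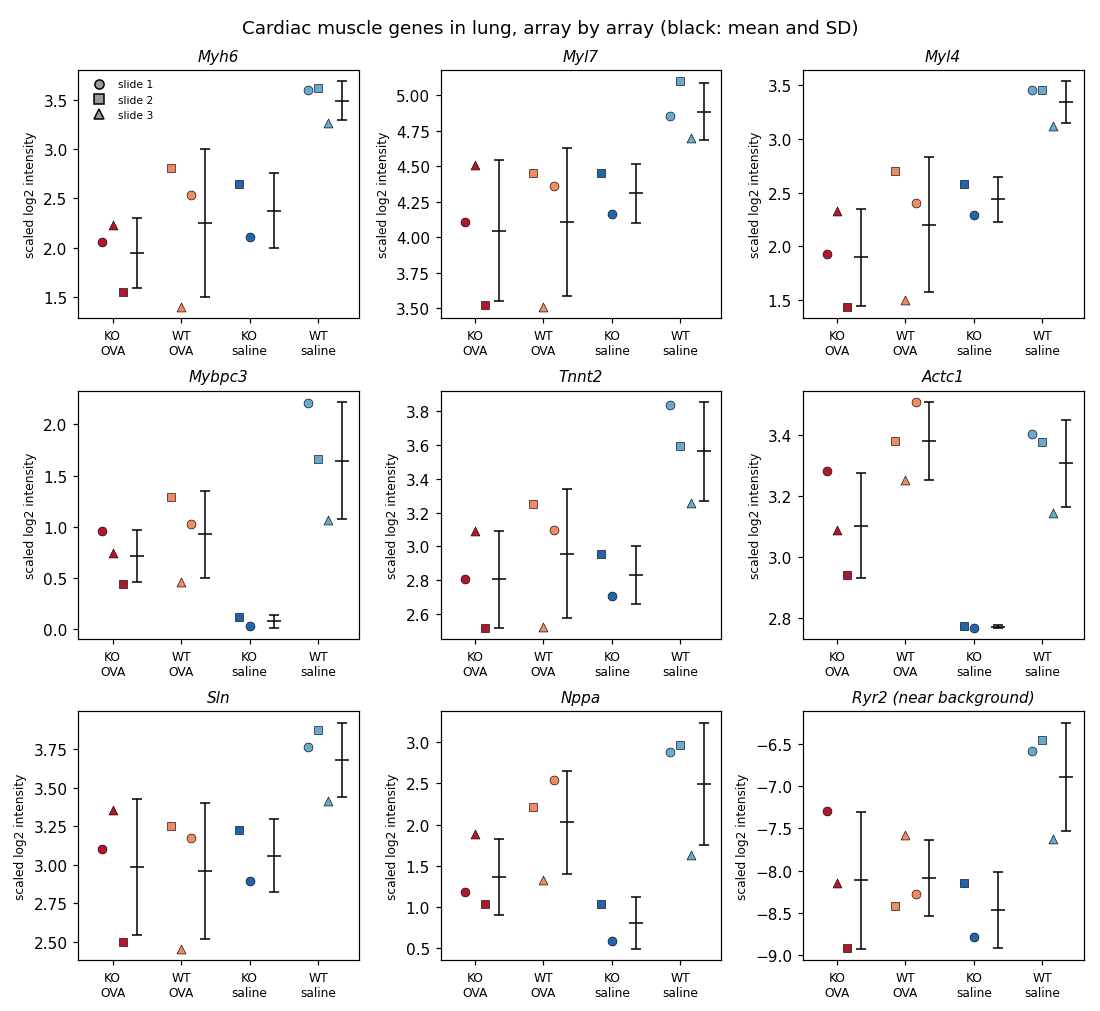
Scaled log2 intensity (vertical axes, 1 panel a gene, each with its own range) of the 9 members in every lung, with groups on the horizontal axes, 1 point a lung, shapes for the 3 slides and black marks for the group mean and SD. In Myh6, Myl7, Myl4, Tnnt2 and Sln the 3 wild-type saline lungs lie above all others. Mybpc3, Actc1 and, by a minute margin, Nppa are lowest in the 2 knockout saline lungs.

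Sln encodes sarcolipin, a small atrial inhibitor of the calcium pump that refills the store. Its values were 3.10, 3.36 and 2.50 in knockout OVA lungs, 3.25, 2.46 and 3.17 in wild-type OVA lungs, 3.23 and 2.89 in knockout saline lungs, and 3.76, 3.87 and 3.41 in wild-type saline lungs. Tnnt2, the troponin that anchors the complex to tropomyosin, was 2.81, 3.09 and 2.52 in knockout OVA lungs, 3.25, 2.52 and 3.10 in wild-type OVA lungs, 2.95 and 2.71 in knockout saline lungs, and 3.84, 3.60 and 3.25 in wild-type saline lungs. In both genes the wild-type saline lungs were highest, in Tnnt2 by the narrowest of margins over wild-type OVA replicate 1, and the other 3 groups overlapped each other. Wild-type OVA replicate 2 and knockout OVA replicate 3 were the low lungs of their groups in Myh6, Myl4, Myl7, Sln and Tnnt2.

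Nppa, Mybpc3 and Actc1 were arranged differently. Nppa, the precursor of atrial natriuretic peptide, was 1.18, 1.88 and 1.03 in knockout OVA lungs, 2.21, 1.33 and 2.54 in wild-type OVA lungs, 1.03 and 0.59 in knockout saline lungs, and 2.88, 2.97 and 1.64 in wild-type saline lungs. Its lowest lung was a knockout saline lung, and wild-type saline replicate 3 lay within the range of the OVA lungs. Mybpc3, the cardiac myosin-binding protein C that sits on the thick filament, was 0.95, 0.74 and 0.44 in knockout OVA lungs, 1.29, 0.45 and 1.03 in wild-type OVA lungs, 0.12 and 0.03 in knockout saline lungs, and 2.21, 1.66 and 1.06 in wild-type saline lungs. The 2 knockout saline lungs were the lowest of all 11. Actc1, cardiac alpha actin of the thin filament, was 3.28, 3.09 and 2.94 in knockout OVA lungs, 3.38, 3.25 and 3.51 in wild-type OVA lungs, 2.77 and 2.77 in knockout saline lungs, and 3.40, 3.38 and 3.14 in wild-type saline lungs. Its knockout saline lungs were also lowest, and it varied least of the members, with a residual SD of 0.14 against 0.31 to 0.59 for the other 7.

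By group mean, wild-type saline lungs ranked first in all of the 8 except Actc1, where the wild-type OVA mean was 3.38 ± 0.13 and the wild-type saline mean 3.31 ± 0.14 (SD, n = 3 each). In Myh6, Myl4, Myl7, Sln and Tnnt2 the lungs of the other 3 groups overlapped. Myh6, for instance, averaged 1.94 ± 0.35 in knockout OVA lungs (SD, n = 3), 2.25 ± 0.75 in wild-type OVA lungs (SD, n = 3) and 2.38 in knockout saline lungs (n = 2). In Mybpc3 the order was 0.71 ± 0.26 in knockout OVA lungs, 0.92 ± 0.43 in wild-type OVA lungs, 0.07 in knockout saline lungs and 1.65 ± 0.58 in wild-type saline lungs. The 2 OVA groups are neighbours in that order and overlap.

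Ryr2, the release channel of the calcium store, stayed near background. Its brightest probe was -7.29, -8.14 and -8.91 in knockout OVA lungs, -8.42, -7.57 and -8.28 in wild-type OVA lungs, -8.15 and -8.78 in knockout saline lungs, and -6.58, -6.45 and -7.63 in wild-type saline lungs. Only wild-type saline lungs 1 and 2 were well above background, so the probe passed the filter through the group in which it was high, and no fold is given. Its remaining probes were well above background on 1 and 0 of 11 arrays.

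In wild-type lungs, OVA went with lower levels of 7 of the 8 members. The choice of the group names no comparison, and this shift was taken as the one for which the group was noted. Its differences and counts are therefore given as a description and not as a test. The OVA minus saline difference was -1.25 ± 0.35 for Myh6 (SE), a 2.38-fold lower intensity, and -1.14 ± 0.32 for Myl4. It was -0.78 ± 0.30 for Myl7, -0.72 ± 0.27 for Sln, -0.72 ± 0.30 for Mybpc3 and -0.61 ± 0.23 for Tnnt2. Nppa differed by -0.47 ± 0.43 and Actc1 by 0.07 ± 0.12, neither more than about its own error. The median over the 8 was -0.72, against 0.02 over the 21883 genes tested. As a description only, 2 of the 8, Myh6 and Myl4, were among the genes called in limma at an adjusted p under 0.05, a set that holds 18.8% of all genes, 7.9% lower and 10.9% higher. That count was 0 with slide or the replicate number in the model, and 0 without any 1 of wild-type saline replicates 1, 2 and 3, wild-type OVA replicates 2 and 3, knockout OVA replicate 1 and both knockout saline lungs. In 5 of the 8 every OVA lung was below every saline lung, as in 20.5% of all genes. Within slides the median was -0.66, -0.63 and -0.84. Without wild-type saline replicate 1 it was -0.57, and without wild-type OVA replicate 2, the lowest lung, it was -0.47.

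In knockout lungs the same comparison gave a median of -0.05, and members differed in sign. Myl4 differed by -0.54 ± 0.36 and Myh6 by -0.43 ± 0.40 between OVA and saline, while Mybpc3 differed by 0.64 ± 0.34, Nppa by 0.56 ± 0.48 and Actc1 by 0.33 ± 0.14 (SE). In Mybpc3, Nppa and Actc1 every OVA lung was above both saline lungs, as in 24.5% of all genes. For Nppa the margin was minute, with 1.0327 in knockout OVA replicate 3 and 1.0312 in knockout saline replicate 1. As a description only, 0 of the 8 members were called in limma and 1 had an unadjusted p under 0.05. Of all genes 8.23% were called, 1.78% lower and 6.45% higher, and 3541 genes were higher and 3077 lower at that unadjusted p. Within slides the median was 0.15 and -0.58, so its sign was not settled.

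**Figure D2:**
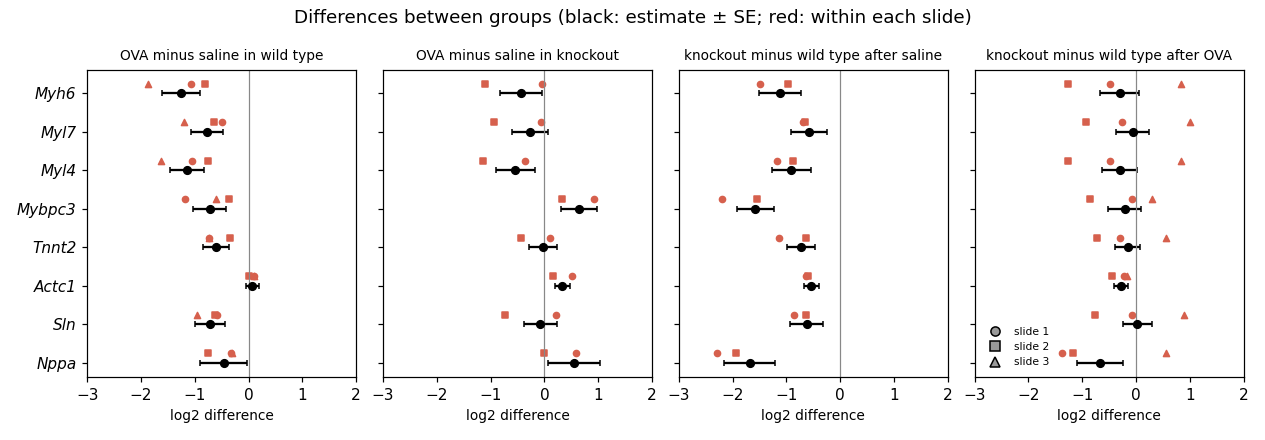
Log2 differences (horizontal axis) of the 8 members (rows) in the 4 comparisons, with black points and bars for the estimate and its SE over all 11 arrays and red shapes for the difference within each slide. Knockout minus wild type after saline lies below 0 for all 8 members on both slides that hold the comparison. After OVA, knockout minus wild type changes sign between slides for every member except Actc1, which lies below 0 on each slide.

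The genotypes were compared separately after each challenge. The choice of the group names no comparison, so the values compared here may also have entered it. Both genotype comparisons reuse lungs of the OVA comparison, and the saline comparison rests on the same high wild-type saline lungs. After saline, all 8 members were lower in knockout than wild-type lungs without overlap of the 2 and 3 lungs, as 10.7% of all genes were. The difference was -1.68 ± 0.48 for Nppa, a 3.22-fold lower intensity, -1.57 ± 0.34 for Mybpc3 (2.98-fold) and -1.12 ± 0.40 for Myh6 (2.18-fold, SE). It was -0.91 ± 0.36 for Myl4, -0.73 ± 0.26 for Tnnt2, -0.62 ± 0.31 for Sln, -0.58 ± 0.34 for Myl7 and -0.54 ± 0.14 for Actc1. The median was -0.82, against 0.02 over all genes.

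After adjustment over all 21883 genes none of these differences passed in limma. The lowest adjusted p among members was 0.38, for Mybpc3, and 6 of the 8 had an unadjusted p under 0.05. Over the array 21 genes passed, or 0.096%, and 484 genes were lower and 232 higher at an unadjusted p under 0.05. Within slides the median over the members was -1.15 and -0.76. Without wild-type saline replicate 1 it was -0.72.

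After OVA the genotypes could not be separated. The median over the 8 members was -0.25 in knockout minus wild type, none was called and none had an unadjusted p under 0.05 in limma, and the lowest adjusted p was 0.995. Over the array 0.21% of genes were called. No member separated the genotypes without overlap, as 4.6% of all genes did with knockout lower and 3.71% with knockout higher. Nppa differed by -0.66 ± 0.43 and Sln by 0.02 ± 0.27 (SE). The slides disagreed, with medians of -0.27, -0.89 and 0.70, and the sign on the third slide is that of a comparison between knockout OVA replicate 2 and wild-type OVA replicate 2, the highest and the lowest lung of their groups. Without wild-type OVA replicate 2 the median was -0.41, all 8 were lower in knockout lungs and 4 had an unadjusted p under 0.05, with none called. Without wild-type OVA replicate 1 the median was -0.03, without wild-type OVA replicate 3 it was -0.16, and without knockout OVA replicate 3 it was -0.08.

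The difference between the OVA effects, knockout minus wild type, was positive for all 8 members, with a median of 0.62. This difference contains the wild-type OVA shift taken as the one for which the group was noted. Its sign and p-values are therefore not independent of the choice of the group. The difference was greatest for Mybpc3, at 1.36 ± 0.45 (SE). None passed in limma (adjusted p = 1.0 for each), where 0.00457% of all genes were called. At an unadjusted p under 0.05 stood 1 of the 8, Mybpc3, beside 240 genes with a positive and 330 with a negative difference. Within slides the median was 0.82 and -0.10. It was 0.38 without wild-type OVA replicate 2, and 0.38 to 0.86 over all arrays left out in turn. The OVA response of these genes was therefore not shown to differ between genotypes.

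Lungs of the same group also differed from each other, and the members moved together when they did. With group means removed, the 28 pairs among the 8 members had a median r of 0.80 over the 11 arrays, and a range of 0.59 (Myl4 with Actc1) to 0.98 (Myl7 with Sln). The points of a pair share arrays, slides and RNA samples, and the value is a description. Averaged over the 8 members, wild-type OVA replicate 2 was 0.55 below its group mean, knockout OVA replicate 3 was 0.37 below and wild-type saline replicate 3 was 0.35 below. Knockout OVA replicate 2 was 0.30 above and wild-type OVA replicate 1 was 0.32 above. These deviations within groups are of the size of the smaller differences between groups.

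Other genes shared the profile to differing degrees. Of all genes, the likeness to the members' mean deviation had a median r of 0.06 and a 95th percentile of 0.77 over the 11 arrays. The 10 most alike genes outside the group were Smpx (r = 0.99), Akap6, Dhrs7c, Tnni3, Ugt1a6b, Kcnj3, Hrc, Xirp2, Tnnc1 and Ckmt2 (r = 0.97). Smpx and Xirp2 encode proteins of the striated muscle cytoskeleton, Hrc a calcium-binding protein of the store, Kcnj3 a subunit of the acetylcholine-gated potassium channel of atrial cells, and Ckmt2 the mitochondrial creatine kinase of sarcomeric muscle. Their OVA minus saline differences in wild-type lungs lay between -1.68 for Kcnj3 and -0.32 for Ugt1a6b. By list, median likeness was 0.94 for the other sarcomere genes, 0.93 for striated muscle energy genes and 0.75 for calcium handling and membrane genes. It was 0.51 for ventricular genes, 0.32 for cardiac transcription factors and 0.25 for cardiac hormones and stress genes. It was 0.86 for adipocyte genes, 0.54 for endothelial genes, 0.35 for skeletal muscle genes and -0.61 for leukocyte genes.

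**Figure D3:**
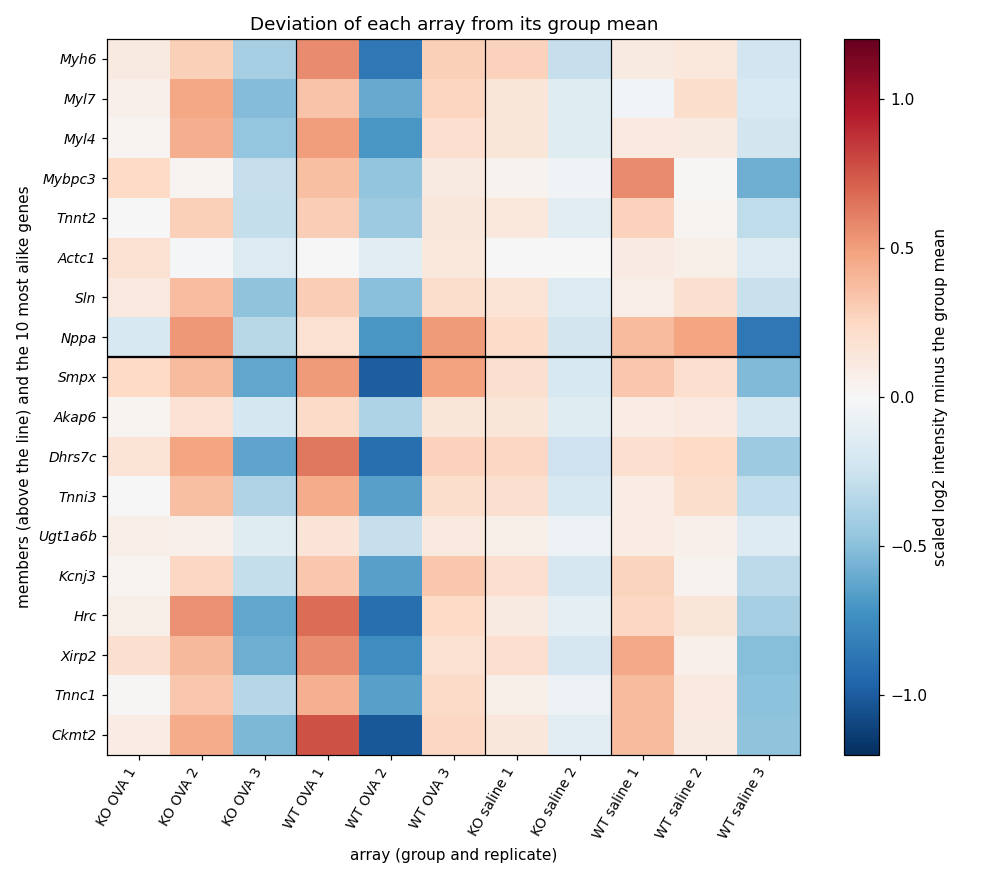
Deviation of each lung from its group mean (colour, in scaled log2 intensity) for the 8 members above the line and the 10 most alike genes below it, with the 11 arrays as columns. Wild-type OVA replicate 2, knockout OVA replicate 3 and wild-type saline replicate 3 are blue in nearly every row, and Actc1, Akap6 and Ugt1a6b are the palest rows.

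Other cardiac genes were counted from lists. Of 21 other sarcomere genes, 9 fell and 0 rose with OVA in wild-type lungs at an adjusted p under 0.05 in limma, with a median of -0.96, where 7.9% of all genes fell and 10.9% rose. The list was drawn up with earlier results of these data known. Myl3 fell by 2.17 on the log2 scale (adjusted p = 0.041) and Actn2, the crosslinker of the Z-disc, fell by 1.0 (adjusted p = 0.046). Tnni3 (-0.94), Tnnc1 (-1.03), Ttn (-0.84), Csrp3 (-1.29) and Mybphl (-0.94) had adjusted p values of 0.051 (Csrp3) to 0.062 (Mybphl) and did not pass. With slide in the model 1 of the 21 fell, with the replicate number in it 1 fell, without wild-type saline replicate 1 none fell and the median was -0.87, and without wild-type OVA replicate 2 none fell and the median was -0.65. Without wild-type saline replicate 1, Myl3 differed by -1.65 (adjusted p = 0.11) and Actn2 by -0.95 (adjusted p = 0.11). Over all arrays left out in turn the count was 0 to 17. In knockout lungs 0 of the 21 passed, 2 had an unadjusted p under 0.05, and the median was -0.37. After saline, 0 of 21 passed in knockout minus wild type, 13 were lower at an unadjusted p under 0.05, and the median was -0.85.

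The calcium handling and membrane list was split, with 10 of its 18 measured genes lower and 8 higher with OVA in wild-type lungs and a median of -0.56. Of these 18 genes 4 fell, among them Trdn, Srl and Kcnj3, and 2 rose, Gja1 and Cacna2d2, all named after their values were seen. Over all genes 7.9% fell and 10.9% rose in this comparison. Casq2 differed by -1.39 ± 0.43, Pln by -0.94 ± 0.29 and Atp2a2, the calcium pump, by -0.78 ± 0.25 (SE), with adjusted p values of 0.052 (Casq2) to 0.056 (Atp2a2), which did not pass. The count that fell was 2 with slide in the model, 1 without wild-type saline replicate 1, 1 without wild-type OVA replicate 2 (where 0 rose) and 1 to 7 over all arrays left out. Of the 16 genes on the energy list 15 were lower with OVA in wild-type lungs, 5 fell and 1 rose. The 1 that rose was Corin, a protease and not an energy gene, named after its value was seen. With slide in the model, without wild-type saline replicate 1 and without wild-type OVA replicate 2 the count that fell was 0, and with the replicate number it was 2. Mb, the oxygen-binding myoglobin, fell by 1.52 on the log2 scale (adjusted p = 0.033, and 0.096 without wild-type saline replicate 1), and Ckmt2 and Cox6a2 differed by -1.42 and -0.61 without passing. In knockout minus wild type after saline, 0 of the 18 and 0 of the 16 passed, 5 and 3 had an unadjusted p under 0.05, and the medians were -0.38 and -0.66.

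The regulators of the heart lineage were counted next. Of 13 measured cardiac transcription factors, Tbx5 (-0.52) and Tead1 (-0.67, named after its value was seen) fell with OVA in wild-type lungs and none rose. The likeness of Tbx5 to the members was only r = 0.08. Over all genes 7.9% fell and 10.9% rose, and the median of the 13 was -0.40. None fell with slide in the model, without wild-type saline replicate 1 or without wild-type OVA replicate 2, and 0 to 4 fell over all arrays left out. Nkx2-5 differed by -0.74 ± 0.32 (SE, adjusted p = 0.135), Gata4 by 0.10 and Hopx, which the lung epithelium also makes, by -0.55. Nppb, the related natriuretic peptide, had its group means in the same order as Nppa, with smaller differences between them. It differed by -0.14 ± 0.30 between OVA and saline in wild-type lungs and by -0.62 ± 0.33 between knockout and wild type after saline (SE).

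Myh7, the slow beta heavy chain, had an arrangement of its own. It was 1.14, 2.14 and 1.17 in knockout OVA lungs, 2.48, 0.49 and 1.18 in wild-type OVA lungs, 3.37 and 3.22 in knockout saline lungs, and 2.97, 3.04 and 3.23 in wild-type saline lungs. Both OVA groups lay below both saline groups, and the knockout saline lungs were not lower than wild type. It fell by 1.70 with OVA in wild-type lungs (adjusted p = 0.036 in limma, 0.059 with slide in the model and 0.080 without wild-type saline replicate 1) and differed by -1.81 in knockout lungs (adjusted p = 0.061). Knockout minus wild type after saline was 0.21 ± 0.51 for Myh7 (SE), against -1.12 ± 0.40 for Myh6. How far Myh7 RNA adds to the Myh6 probes was not tested.

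**Figure D4:**
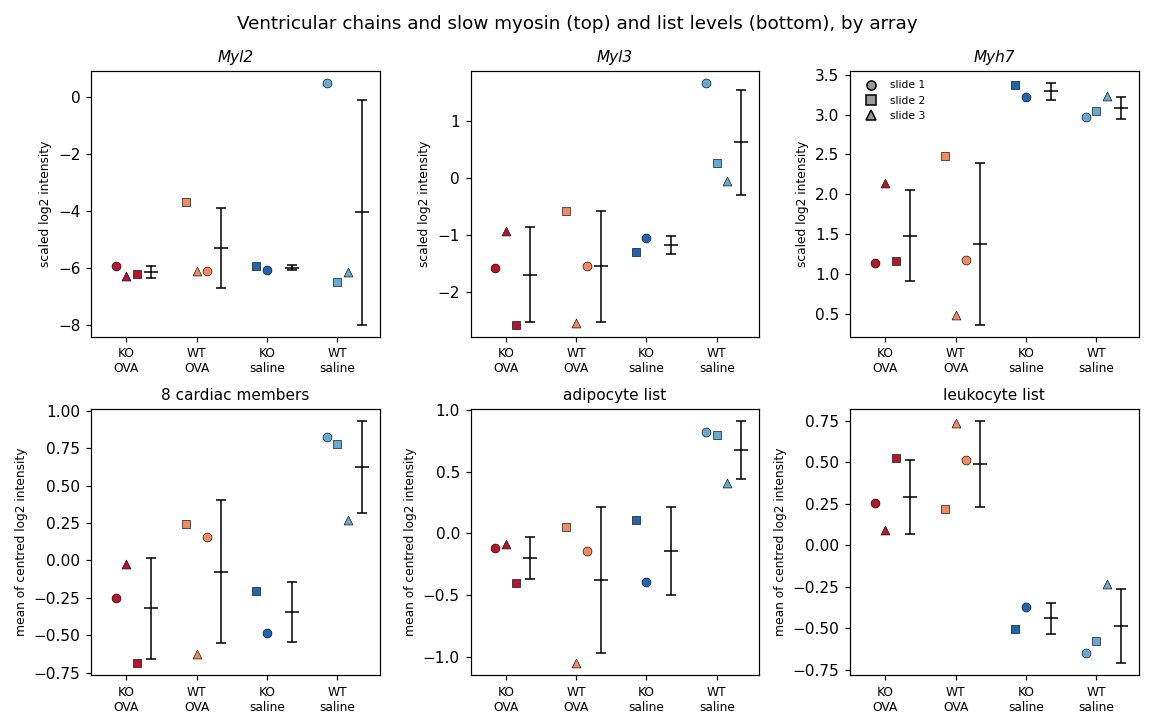
Scaled log2 intensity of Myl2, Myl3 and Myh7 in every lung (top). The bottom row shows the mean centred log2 intensity of the 8 members, 10 adipocyte genes and 10 leukocyte genes. Groups are on the horizontal axes, with shapes for the 3 slides and black marks for mean and SD. Myl2 is high in wild-type saline replicate 1, the adipocyte level is highest in wild-type saline lungs as the members are, and the leukocyte level is higher in both OVA groups.

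Markers of other cells moved beside the members. The 12 adipocyte genes were all lower in wild-type OVA than in wild-type saline lungs, with a median of -1.0. Of these Adipoq, Plin1, Cidec and Pck1 fell (4 of 12, the last pair named after their values were seen), where 7.9% of all genes fell. None of the 12 passed without wild-type saline replicate 1 or without wild-type OVA replicate 2. The mean centred adipocyte level was taken over the 10 of these genes well above background on all 11 arrays. It was -0.40 to -0.09 in knockout OVA lungs, -1.05 to 0.05 in wild-type OVA lungs, -0.39 to 0.11 in knockout saline lungs and 0.41 to 0.82 in wild-type saline lungs. The corresponding level of the 8 members was -0.69 to -0.02 in knockout OVA lungs, -0.62 to 0.24 in wild-type OVA lungs, -0.48 to -0.20 in knockout saline lungs and 0.27 to 0.82 in wild-type saline lungs. Adipoq was -1.25, -1.10 and -1.57 in knockout OVA lungs, -1.03, -2.25 and -0.96 in wild-type OVA lungs, -1.23 and -1.83 in knockout saline lungs, and 0.07, 0.16 and -0.55 in wild-type saline lungs, and its likeness to the members was r = 0.95. Lep, leptin, was well above background on 2 of 11 arrays. The part of adipose tissue in the members' values was not tested.

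Leukocyte, vessel, muscle and lining cell genes were counted in the same way. With OVA, 7.9% of all genes fell and 10.9% rose in wild-type lungs, and 1.78% fell and 6.45% rose in knockout lungs. Of 10 leukocyte genes, 7 rose with OVA in wild-type lungs, with a median of 0.95, and 2 rose in knockout lungs. In wild-type lungs 3 rose without wild-type saline replicate 1 and 1 without wild-type OVA replicate 2. Their mean centred level was 0.09 to 0.53 in knockout OVA lungs, 0.22 to 0.73 in wild-type OVA lungs, -0.51 to -0.37 in knockout saline lungs and -0.65 to -0.23 in wild-type saline lungs. In knockout minus wild type after saline the leukocyte median was 0.04 and 0 of 10 passed in limma, 0 of them even at an unadjusted p under 0.05. Of 12 endothelial genes, 4 fell with OVA in wild-type lungs and 1 in knockout lungs, and their genotype median after saline was -0.01. The count in wild-type lungs was 1 without wild-type saline replicate 1, 0 without wild-type OVA replicate 2 and 0 to 9 over all arrays left out, and in knockout lungs it was 0 to 3. Of 13 smooth muscle genes, 2 fell with OVA in wild-type lungs and 0 rose, and none fell with slide in the model or without wild-type saline replicate 1. The smooth muscle genotype median after saline was -0.26, and their mean centred level was 0.11 to 0.16 in wild-type saline lungs and -0.24 to 0.07 in the other 8, so that wild-type saline lungs were highest here as among the members. Of 19 skeletal muscle genes, 1 fell and 1 rose in wild-type lungs. In knockout lungs 3 of these 19 fell and 2 rose, and of the 13 smooth muscle genes 0 fell and 2 rose. After saline the genotype median was 0.08 for 12 lung epithelial genes, 0.41 for 7 mesothelial genes, 0.07 for 6 neuronal genes and -1.08 for 4 erythroid genes, with 0 called in each list and 1, 2, 0 and 1 at an unadjusted p under 0.05. The part of inflammatory cells, vessels and airway muscle in the members' values was not tested.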

How the data were processed

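Total RNA of 11 lung samples was labelled with Cy3 and hybridised to Agilent one-colour arrays of 60-base probes. Per the file headers, the deposited scanner files give background-subtracted and detrended spot intensity from Agilent's Feature Extraction software, version 9.5.1.1, while version 9.1 is named in the submitters' processing notes. The authors' deposited value table holds log2 values. Its method is not given in the sources used here, its column medians are 7.67, and its direction follows the intensity (rank r of at least 0.9997).

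The members and gene lists were chosen with earlier results of these data known. Log2 intensity was scaled by each array's 75th percentile, control spots and flagged spots were left out, and a probe was kept if 2 or more of the 11 arrays had it well above background (32956 probes, 21883 genes, brightest probe a gene). Gene names followed RefSeq accessions where matched (22951 probes). limma 3.58.1 in R 4.3.3 was fitted with 4 group means to all arrays and was tested on simulated data. Its tests are two-sided, and a gene is called where p, adjusted over all genes by Benjamini and Hochberg's method, is under 0.05. Alternatives were other background corrections, scalings, filters, probe summaries, fits, slide and replicate blocks, the authors' values and each array left out. Counts over gene lists under these were added after seeing the data. Named genes are all members, Foxa3, fixed cardiac genes, the first-listed genes of other lists and the 10 genes most alike; others are marked as chosen after their values were seen. Same-numbered samples did not deviate together (r -0.41 to 0.34), so replicate numbers were not taken as pairs. The number of arrays limits the precision. Some genes that this rule or a list names are not reported here.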

Additional observations from a re-analysis of the deposited data

How the results depend on the processing

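The median over the 8 members kept its sign in both genotype comparisons, in OVA minus saline in wild-type lungs and in the difference of OVA effects, under all 22 alternatives. It ranged from -0.76 to -0.72 across processing settings and from -0.88 to -0.47 across left-out arrays for OVA in wild-type lungs, and from -1.01 to -0.76 and from -0.95 to -0.68 for knockout minus wild type after saline. It ranged from -0.25 to -0.22 and from -0.41 to -0.03 for knockout minus wild type after OVA, and from 0.60 to 0.72 and from 0.38 to 0.86 for the difference of OVA effects. In knockout lungs the OVA median crossed 0 (-0.13 to 0.03 across settings, -0.21 to 0.14 across left-out arrays). The number of members called with OVA in wild-type lungs was 2 as reported and 0 without a filter on dim probes, in a fit of only the groups compared, with the slide block and with the replicate block. It was 3 in the authors' value table and 0 to 2 with an array left out. In those authors' values 16 of the 21 other sarcomere genes fell, against 9. With an array left out, 0 to 9 energy genes and 0 to 7 adipocyte genes fell and 1 to 7 leukocyte genes rose with OVA in wild-type lungs. In the other 4 comparisons no member was called under any alternative. The differences that changed sign include those of Myl2, which rest on wild-type saline replicate 1. Tnnt2 in OVA minus saline in knockout lungs became 0.0887 with the mean of probes, 0.0496 with the slide block and 0.0496 with the replicate block, and Sln became 0.0156 with the replicate block. Over left-out arrays these ranged from -0.17 to 0.12 (Tnnt2) and from -0.26 to 0.17 (Sln). In knockout minus wild type after OVA, Myl7 ranged from -0.36 to 0.20 and Sln from -0.23 to 0.27. For OVA in wild-type lungs, Actc1 ranged from -0.00953 to 0.14, Gata4 from -0.0502 to 0.22, Myl2 from -2.48 to 1.02 and Nppb from -0.50 to 0.13. For knockout minus wild type after saline, Gata4 ranged from -0.38 to 0.000464, Myl2 from -3.16 to 0.33 and Tbx5 from -0.18 to 0.0467. Gata4 was -0.0142 with OVA in wild-type lungs under quantile scaling. With normexp background correction it was 0.0446 for knockout minus wild type after saline. The cause was not tested. Over all genes, 4108 were called for OVA in wild-type lungs, against 2039 in a fit of only the groups compared, 2716 with the slide block and 1052 to 6263 with an array left out. For OVA in knockout lungs 1801 were called, against 444 in a fit of only the groups compared, 714 with the replicate block, 845 with the slide block, 1185 without a filter, 2774 with a trended prior, 2862 in the authors' values and 83 to 3306 with an array left out. For knockout minus wild type 46 were called after OVA (11 to 95 across settings and left-out arrays) and 21 after saline (10 to 29). Normexp correction moved the median of all genes to 0.13 for OVA in wild-type lungs, where the members' median stayed between the limits given. Ryr2 is limited by signal near background, and knockout saline, with 2 lungs, by its number.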

Other observations

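A few genes of the cardiac lists rose with OVA in both genotypes, against the direction of the members, and were picked out after their values were seen. Corin, the membrane protease that cleaves the Nppa precursor, rose by 2.12 on the log2 scale in knockout lungs (adjusted p = 0.020 in limma) and by 1.97 in wild-type lungs (adjusted p = 0.012). Ankrd1, a stress-responsive ankyrin repeat protein of muscle, rose by 0.81 in knockout lungs (adjusted p = 0.0079) and by 0.78 in wild-type lungs (adjusted p = 0.0042). Gja1, the gap junction protein connexin 43, rose by 0.72 in knockout lungs (adjusted p = 0.022) and by 0.58 in wild-type lungs (adjusted p = 0.021). Without wild-type OVA replicate 2, neither Corin nor Gja1 was called in wild-type lungs. The rises in knockout lungs rest on 2 saline lungs. None of these 3 genes is made by heart muscle alone.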
